A study of Homo sapiens with 16 samples.

Results

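U2OS cells, a human osteosarcoma line, were sequenced in 8 groups with 2 libraries each, given the numbers R1 and R2 by their titles. The R2 libraries (set 2) were compared with the R1 libraries (set 1) inside each group, in 6 of the 8 groups, so 12 of the 16 libraries entered as 6 pairs. The groups were siSETD2, an siRNA against the transcript of the histone methyltransferase SETD2, and siNT, a non-targeting siRNA, each collected 48 h after transfection. Within each siRNA, cells had received 2 mM hydroxyurea (HU) together with 2 µM VE-822, HU alone, or neither for the last 4 h. HU starves replication forks of deoxynucleotides, and the drug VE-822 blocks ATR, a kinase of the replication checkpoint. The 4 libraries given VE-822 alone were left out of the sets and are described separately. All 12 libraries came from 1 cell line grown in medium with fetal bovine serum. The labels do not say whether R1 and R2 were separate cultures. All 6 pairs share the same 2 sets, so a p-value here measures only whether a difference was alike across the 6 groups, and its cause cannot be told apart from any event that separated set 2 from set 1.

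A culture of 1 line can hold the same genotype in different transcriptional states. Cells that secrete and attach to collagen-rich matrix raise collagens and their crosslinking enzymes, cells in the G1/S transition raise genes of DNA replication through E2F factors, and cells under oxidative or proteotoxic stress raise antioxidant enzymes, chaperones and lysosomal genes through NRF2, HSF1 and TFEB. The members of such pathways were grouped in lists.

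Each library held 22310806 to 27862552 fragments recovered from the FPKM values (fragments per exon length and per scaling factor of the library), and 26548 to 28941 genes with at least 1 fragment. That factor was 0.94 to 1.04 times the total of fragments in set 2, against 1.02 to 1.07 times in set 1. The share of fragments on the mitochondrial genome was 12.4% to 18.5% (median 16.9%) in set 2, against 10.9% to 15.6% (median 12.8%) in set 1. It was higher in set 2 in 6 of 6 pairs, with overlapping ranges (two-sided exact sign-flip permutation test, p = 0.03125, the smallest that 6 pairs allow; 0.0781 adjusted over 5 such values). The 20 most abundant genes took 15.1% to 20.6% in set 2, against 13.9% to 17.8% in set 1, higher in 6 of 6 pairs with the same p. This value is not separate from the mitochondrial share. In untreated siNT of set 2, for instance, that share was 18.5% where the 20 genes took 20.6%. For the total of fragments no such difference was detected (higher in set 2 in 5 of 6 pairs, exact permutation p = 0.844). Mesenchymal markers of the line, VIM, SPARC and CDH2, were above 30 FPKM in all 12 libraries, while COL1A2 and TWIST1 stayed under 0.1 FPKM. In all, 7 of 16 such markers stayed under 1 FPKM. VIM had 106 to 117 FPKM in set 2, against 129 to 167 FPKM in set 1. SPARC had 174.8 to 249.8 against 89.2 to 172.3 FPKM and CDH2 51.4 to 64.4 against 31.6 to 47.5 FPKM, none with overlap. Of 9 mesenchymal markers tested, 5 were higher in set 2 and 2 lower (median 0.28, with equal sums 0.18 and 4 higher and 3 lower). Of markers of other cells, 12 of 14 for blood, 8 of 9 for endothelium, 9 of 14 for epithelium and 6 of 6 for adipocytes stayed under 1 FPKM in all 12 libraries. PTPRC and FABP4 were at or near 0. Epithelial markers were mixed, with CDH1, KRT5, KRT14 and KRT19 under 0.2 FPKM but KRT18 at 66.3 to 79.7 FPKM in set 2, against 56.8 to 99.4 FPKM in set 1. Of the 5 epithelial markers tested, 2 were higher in set 2 and 0 lower, namely KRT8 at 19.8 to 26.2 FPKM (median 22.2) in set 2, against 11.5 to 14.9 FPKM (median 12.5) in set 1, without overlap, and CLDN4 at 5.22 to 9.61 FPKM (median 6.37) in set 2, against 2.44 to 5.79 FPKM (median 3.37) in set 1, with overlap. The part of these markers in the results was not tested. The summed level of the blood markers was 3.55 to 4.38 FPKM in set 2, against 4.07 to 5.3 FPKM in set 1.

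The SETD2 transcript was checked first, since it tests the siRNA labels. In siSETD2 cells of set 2 it stood at 4.17 FPKM untreated, 4.13 FPKM in HU and 3.67 FPKM in HU with VE-822, against 2.01, 2.22 and 2.64 FPKM in set 1 in the same order. In siNT cells the order gave 8.06, 8.09 and 7.34 FPKM in set 2, against 8.40, 8.12 and 7.41 FPKM in set 1. Every siSETD2 library lay below every siNT library, and the transcript left after siSETD2 was 50.01% to 51.7% of siNT in set 2, against 23.9% to 35.6% in set 1. SETD2 was thus higher in set 2 in all 3 siSETD2 pairs and lower in all 3 siNT pairs. The difference between siRNAs in the set difference was 0.63 on the log2 scale (SE 0.131) and did not pass limma's test adjusted over all genes (adjusted p = 0.529). DARS, the cytosolic aspartyl-tRNA synthetase, was chosen after its values were seen. In siSETD2 cells it stood at 10.4, 10.1 and 11.4 FPKM in set 2, against 5.13, 4.41 and 4.50 FPKM in set 1. In siNT cells it stood at 21.9, 23.2 and 20.9 FPKM in set 2, against 22.1, 24.8 and 24 FPKM in set 1, so that it was lower in siSETD2 than in siNT cells in both sets.

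**Figure D1:**
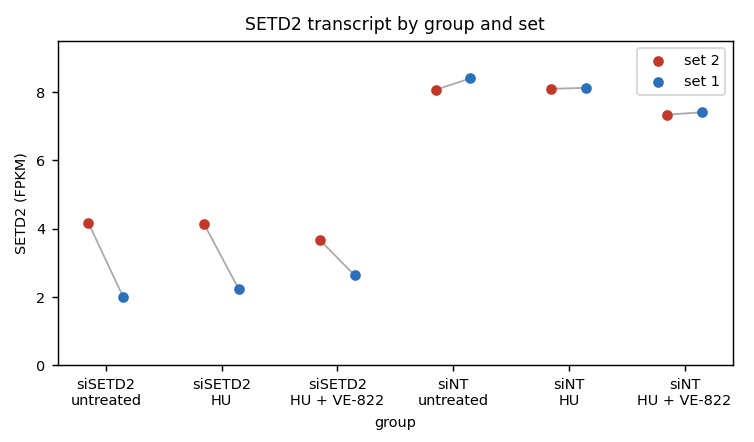
SETD2 level in FPKM (vertical axis) in each of the 12 libraries, by group (horizontal axis), with set 2 left and set 1 right of each pair and a line joining them. The 3 siSETD2 pairs show 3.67 to 4.17 FPKM in set 2 and 2.01 to 2.64 FPKM in set 1, while the siNT pairs lie between 7.34 and 8.40 FPKM.

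Over 13009 genes whose mean reached 1 FPKM, limma on log2(FPKM + 1), with 1 mean per group and a term for the set, called 4756 genes at an adjusted p under 0.05, which is 36.6% of those tested. Of these, 2536 were higher in set 2 (19.5%) and 2220 lower (17.1%), and 94 higher and 102 lower genes passed a fold of 2. For 983 genes every set 2 library lay above every set 1 library (7.56%), and for 964 every one lay below (7.41%). Median change over all genes was 0.00 with the deposited scaling, -0.09 with limma-voom on fragments scaled by library totals and -0.14 with equal sums of FPKM. Scaling by median ratio, which aligns the middle genes of the libraries, also gave 0.00 and shared 4739 of the 4756 calls. The median of 0.00 and the near even split are thus tied to the deposited scaling, which was not by library totals. With those scalings the split became 1844 higher and 3783 lower (limma-voom) and 1110 higher and 4683 lower of 13030 genes tested (equal sums). Sums of FPKM were 341913 to 394849 in set 2, against 305423 to 344357 in set 1. The 13 mitochondrial genes took 118222 to 173105 of these in set 2, against 97011 to 132020 in set 1. Equal sums therefore lower all other genes where the mitochondrial genes rise, and are not a neutral reference. Changes near that shift depend on the scaling, and list medians and counts are given with both the deposited scaling and equal sums. With the deposited scaling, the counts of a list are to be set against 19.5% higher and 17.1% lower of all genes. With equal sums, they are to be set against 1110 higher and 4683 lower of 13030 genes. Counts under other settings are given for lists where they moved by over 1.5 times and at least 2 genes, though not for every such move. When a pair was left out and genes were called from the other 5 pairs, 84.9% to 98.0% of the higher genes were higher in the pair left out, and 85.9% to 98.0% of the lower genes were lower. Over all genes, 47.6% to 54.7% were higher and 45.3% to 52.4% lower in a pair. The least alike was untreated siSETD2 in both directions, where the spread of the pair difference over genes was also the largest (SD 0.551, against 0.341 to 0.413 in the other 5 pairs).

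The largest rises in set 2 included genes of the cell surface and of the matrix. BCAM (ENSG00000187244, chr19:44809059-44821421, plus strand), a laminin receptor, stood at 18 to 26.1 FPKM (median 20.9) in set 2, against 3.15 to 4.58 FPKM (median 3.6) in set 1. All 6 set 2 libraries lay above all 6 of set 1, and the log2 change was 2.25 (SE 0.0983, adjusted p = 3.43e-06), with 1.88 to 2.71 over the 6 pairs. CA9 (ENSG00000107159, chr9:35673856-35681159, plus strand), a membrane carbonic anhydrase induced by hypoxia, had 2.21 to 3.84 FPKM (median 3.44) in set 2, against 0.0407 to 0.165 FPKM (median 0.0846) in set 1. Set 1 was close to the detection limit and the sets did not overlap (log2 change 1.95, SE 0.0934, adjusted p = 5.7e-06, understated on this scale). SCARA3, a scavenger receptor family member, was at 21.9 to 27.8 FPKM (median 25.6) in set 2, against 4.21 to 7.39 FPKM (median 6.25) in set 1 (log2 change 1.91, adjusted p = 1.08e-05). SEMA6B, a transmembrane semaphorin, reached 22.7 to 30.5 FPKM (median 26.5) in set 2, against 5.45 to 7.12 FPKM (median 6.56) in set 1 (log2 change 1.91, adjusted p = 2.03e-06). EFEMP1, the matrix glycoprotein fibulin-3, stood at 21.6 to 27.9 FPKM (median 24) in set 2, against 4.69 to 8.01 FPKM (median 5.98) in set 1 (log2 change 1.86, adjusted p = 2.03e-06). For all 3 the lowest set 2 library lay well above the highest of set 1. The adhesion protein TENM2 rose by 1.72 (adjusted p = 3.43e-06), the calcium-activated chloride channel ANO2 by 1.64 (adjusted p = 3.43e-06), the collagen chain COL1A1 by 1.62 (adjusted p = 3.3e-05) and the secreted C1q-family protein C1QL1 by 1.53 (adjusted p = 5.66e-05). C9orf84 rose by 1.57 (adjusted p = 7.59e-05), TGFB2-AS1, an RNA antisense to TGFB2, by 1.54 (adjusted p = 0.000261), and the mitochondrial serine tRNA gene MT-TS1, which is shorter than a fragment, by 1.53 (adjusted p = 0.000275). None of the 12 had overlapping sets.

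The largest falls were of larger size than the largest rises. LINC02296 (ENSG00000258859, chr14:87353070-87573022, minus strand), a long non-coding RNA, stood at 0.257 to 1.61 FPKM (median 1.07) in set 2, against 12.7 to 19.8 FPKM (median 15.9) in set 1, a change of -3.09 (SE 0.154, adjusted p = 6.55e-06). MMP1 (ENSG00000196611, chr11:102789920-102798160, minus strand), the interstitial collagenase, had 1.88 to 3.51 FPKM (median 2.18) in set 2, against 14.1 to 39.5 FPKM (median 22.8) in set 1 (log2 change -2.90, SE 0.214, adjusted p = 4.81e-05). Every set 2 library of both genes lay below every set 1 library. LCP1, an actin-bundling protein best known from leukocytes, was at 1.02 to 1.99 FPKM (median 1.41) in set 2, against 12.7 to 22.5 FPKM (median 17.4) in set 1 (log2 change -2.89, adjusted p = 8.44e-06). SPP1 (ENSG00000118785, chr4:87975650-87983426, plus strand), the bone matrix protein osteopontin, stood at 42.4 to 63.2 FPKM (median 56.2) in set 2, against 250.1 to 379.9 FPKM (median 289) in set 1 (log2 change -2.45, SE 0.134, adjusted p = 1.09e-05). HMOX1 (ENSG00000100292, chr22:35380361-35394214, plus strand), the haem-degrading enzyme induced by NRF2, stood at 11 to 29 FPKM (median 16) in set 2, against 66.3 to 200.4 FPKM (median 111) in set 1 (log2 change -2.70, SE 0.177, adjusted p = 2.55e-05). Neither overlapped between the sets, and the pair differences ran over -3.13 to -2.07 for SPP1 and -3.76 to -2.21 for HMOX1, the lowest in untreated siSETD2 cells for HMOX1. Among the rest, DCDC2C fell by 2.90 (adjusted p = 1.33e-06) and LINC00520 by 2.88 (adjusted p = 1.33e-06). MYCT1 was at 0.104 to 0.339 FPKM (median 0.184) in set 2, against 4.09 to 5.71 FPKM (median 4.44) in set 1, and LINC01705 at 0 to 0.166 FPKM (median 0.0336) in set 2, against 3.09 to 8.98 FPKM (median 5.2) in set 1. Both were near the detection limit in set 2, so their changes of -2.27 (adjusted p = 1.33e-06) and -2.59 (adjusted p = 1.91e-05) are understated. The lipase relative PNLIPRP3 changed by -1.89 (adjusted p = 2.54e-05), the trypsin inhibitor SPINK1 by -1.88 (adjusted p = 5.98e-05) and the TNF-family cytokine TNFSF15 by -1.79 (adjusted p = 1.33e-06), each without overlap. PNLIPRP3 had 0.198 to 0.341 FPKM in set 2, against 2.51 to 4.88 FPKM in set 1, and SPINK1 0.0258 to 0.281 against 1.69 to 4.96 FPKM. Like MYCT1 and LINC01705, PNLIPRP3 and SPINK1 passed the filter on low values only through set 1. Of the 102 genes lower by a fold of 2, 20 were long intergenic non-coding RNAs, and 2 of the 94 higher, where this class made up 3.79% of the genes tested.

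**Figure D2:**
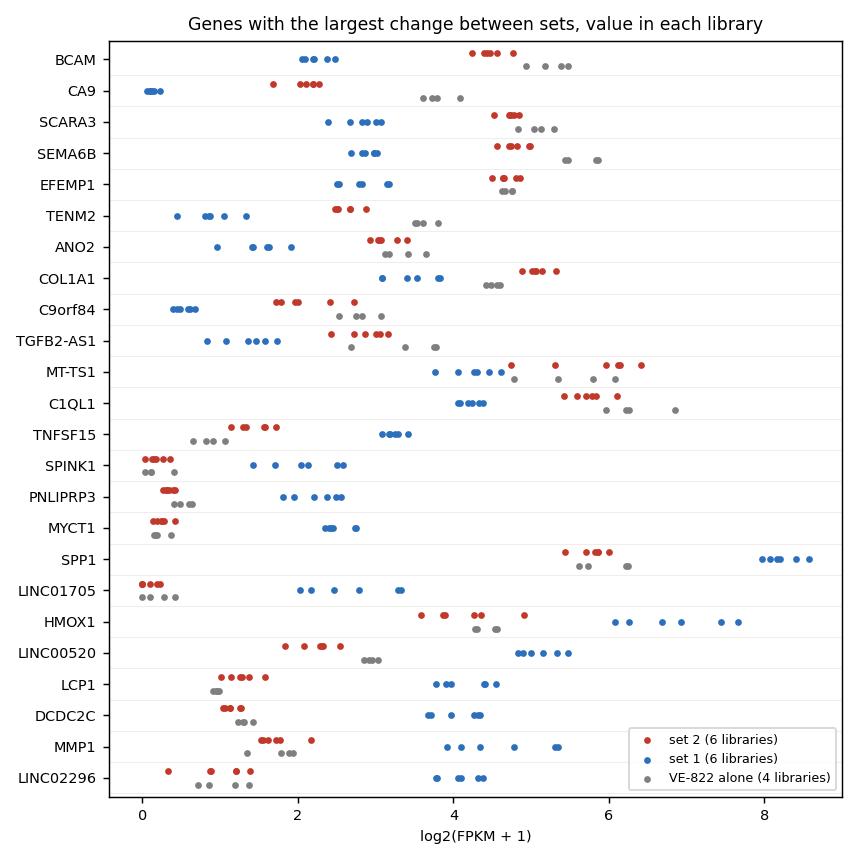
Level in log2(FPKM + 1) (horizontal axis) in each library of the 12 genes with the largest rise and the 12 with the largest fall; red points are set 2, blue points set 1 and grey points the 4 libraries given VE-822 alone. Red and blue do not overlap for any of the 24 genes, and grey lies nearer to red than to blue in most.

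Genes of the extracellular matrix were higher in set 2. The list counted 27 of 35 higher and 1 lower, against 19.5% and 17.1% of all genes, and the median change was 0.52 (0.35 with equal sums, which left 18 higher and 3 lower). COL1A1, a chain of type I collagen, stood at 28.4 to 39 FPKM (median 32.2) in set 2, against 7.45 to 13.2 FPKM (median 10.1) in set 1. LOXL2, an enzyme that crosslinks collagen, was at 29.97 to 44.9 FPKM (median 38.2) in set 2, against 8.57 to 21.7 FPKM (median 13.6) in set 1 (log2 change 1.42, SE 0.122, adjusted p = 9.49e-05). Neither overlapped between sets. COL6A3, chosen after its value was seen as the 1 lower member, changed by -0.54 (adjusted p = 0.0028). More cells with high matrix expression and more of this RNA per cell cannot be told apart in bulk RNA.

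Proteases that cut the matrix, and their inhibitors, were split, with 3 of 15 higher and 8 lower (median -0.26, with equal sums -0.42 and 3 higher and 9 lower). MMP3, the protease stromelysin-1, stood at 615 to 1113 FPKM (median 769) in set 2, against 1477 to 4485 FPKM (median 2629) in set 1 and fell by 1.68 (adjusted p = 0.002). TIMP2, an inhibitor of matrix metalloproteinases, stood at 50.3 to 68 FPKM (median 55.2) in set 2, against 19.7 to 35 FPKM (median 25.6) in set 1 and rose by 1.13 (adjusted p = 5.46e-05). With MMP1, these show collagenase and stromelysin lower and their inhibitor TIMP2 higher, each without overlap.

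TEAD-dependent targets of YAP, the effector of the Hippo pathway, counted 12 of 24 higher and 3 lower (median 0.34, with equal sums 0.16 and 9 higher and 3 lower). TGFB2 (ENSG00000092969, chr1:218346235-218444619, plus strand), the secreted growth factor TGF-beta 2, was at 8.85 to 12.5 FPKM (median 11.6) in set 2, against 2.64 to 3.9 FPKM (median 3.54) in set 1 (log2 change 1.46, SE 0.0607, adjusted p = 2.56e-06). TGFB2-AS1 lies just upstream of it (ENSG00000232480, chr1:218344196-218345678, minus strand), without overlap. CRIM1, a membrane protein with cysteine-rich repeats, rose by 1.03 (adjusted p = 0.000119), while ANKRD1, a classical YAP target, went the other way at 130.4 to 198 FPKM (median 161) in set 2, against 286 to 402 FPKM (median 303) in set 1 (log2 change -0.94, SE 0.0888, adjusted p = 0.000142). TGF-beta response genes were mixed, with 5 of 19 higher and 6 lower and a median of 0.15. With equal sums their median was -0.01 (4 higher and 7 lower), where the median of all genes was -0.14. BAMBI, a decoy receptor that damps TGF-beta signalling, fell by 1.03 (adjusted p = 0.000635) and PMEPA1, an inhibitor of the same pathway, by 0.85 (adjusted p = 0.000218), PMEPA1 with overlapping sets. SRF and actin genes gave 4 of 27 higher and 3 lower (median 0.04, with equal sums -0.13 and 1 higher and 9 lower), led by the focal adhesion protein VCL, which rose by 0.72 (adjusted p = 0.000649), and the smooth muscle actin ACTA2, which fell by 1.02 (adjusted p = 4.56e-05). For SRF and actin genes the count was 2 higher and 7 lower with limma-voom and 4 and 5 with a GC correction. Notch genes counted 2 of 6 higher and 1 lower (median 0.19, with equal sums 0.03 and 1 higher and 1 lower), with NOTCH3 at 9.41 to 16 FPKM (median 12.7) in set 2, against 2.73 to 7.79 FPKM (median 4.95) in set 1 (log2 change 1.19, adjusted p = 0.000569). Wnt genes counted 7 of 11 higher and 2 lower (median 0.29, with equal sums 0.16 and 4 higher and 3 lower), with the secreted Wnt modulator DKK3 up by 0.89 (adjusted p = 7.07e-05) and the receptor FZD8 down by 0.62 (adjusted p = 0.00866).

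E2F targets of the G1/S transition were higher in set 2. They counted 45 of 63 higher and 2 lower (median 0.35, 0.19 with equal sums, which left 27 higher and 4 lower). The members lower in set 2 were E2F7, a repressor of the family, and CCNE1, cyclin E1, named after their values were seen, at -0.64 (adjusted p = 0.000168) and -0.31 (adjusted p = 0.0195). E2F2 (ENSG00000007968, chr1:23506430-23531220, minus strand), an activator of the family, stood at 6.63 to 8.32 FPKM (median 7.37) in set 2, against 2.44 to 3.62 FPKM (median 3.15) in set 1 (log2 change 1.07, SE 0.0751, adjusted p = 3.86e-05). E2F1 (ENSG00000101412, chr20:33675683-33686404, minus strand), another activator, was at 20.02 to 38 FPKM (median 31.3) in set 2, against 12.5 to 17.7 FPKM (median 15.3) in set 1 (log2 change 0.90, SE 0.0912, adjusted p = 0.000198). MCM6 (ENSG00000076003, chr2:135839626-135876426, minus strand), a subunit of the replicative helicase, had 24.8 to 35.1 FPKM (median 30.7) in set 2, against 14.2 to 19.96 FPKM (median 17.4) in set 1 (log2 change 0.81, SE 0.0588, adjusted p = 4.64e-05). No set 2 library of these 3 genes lay in the range of set 1.

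The promoters of 4 higher members are shown because each holds an E2F site that a search of both strands found, in capitals. MCM3, another helicase subunit, was chosen after its value was seen and changed by 0.58 (adjusted p = 0.000351). Sequences are from RefSeq on GRCh38.p14.
E2F1 (chr20:33686378-33686425, minus strand): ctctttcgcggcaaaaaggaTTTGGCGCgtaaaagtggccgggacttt
E2F2 (chr1:23531248-23531295, minus strand): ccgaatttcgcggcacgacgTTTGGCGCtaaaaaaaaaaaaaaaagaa
MCM6 (chr2:135876506-135876553, minus strand): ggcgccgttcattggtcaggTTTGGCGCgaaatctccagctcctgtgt
MCM3 (chr6:52284889-52284936, minus strand): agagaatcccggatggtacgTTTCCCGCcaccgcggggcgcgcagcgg
The sites searched were TTTCCCGC and TTTGGCGC, in windows of 250 bases before to 50 after the gene start. They occurred in 23 of the 55 list members with a promoter in the table (41.8%), against 2.27% of all 35116 promoters and 3.96% of those of genes tested. The list was made of E2F targets, so this share follows from its choice and is not a result of the comparison. Of these 23 genes, 19 were higher in set 2 and 0 lower, as the whole list was mostly higher. Among all 360 tested genes with a site, 25.3% were higher and 13.3% lower, against 19.5% and 17.1% of all genes. The 360 include the 23 list members, which gave 19 of the 91 higher genes, so this share is not separate from the list. A match of letters does not show binding. The window of MCM6 holds 2 sites, of which 1 is shown.

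The G2/M list of mitotic genes gave 14 of 51 higher and 0 lower and a median of 0.16. With equal sums its median was -0.01 (4 higher and 4 lower), where the median of all genes was -0.14. For G2/M genes the count was 7 higher and 0 lower without untreated siNT, 8 and 0 without siNT in HU, without the pairing or with no filter on low values, 9 and 0 without siSETD2 in HU and 9 and 1 with limma-voom. CDC25B, the phosphatase that starts mitotic entry, stood at 27.4 to 38.4 FPKM (median 32) in set 2, against 19.8 to 28.5 FPKM (median 22.7) in set 1 (log2 change 0.47, SE 0.0829, adjusted p = 0.00299), with overlapping sets. KIF20A and CIT, which act in cytokinesis, rose by 0.47 (adjusted p = 0.0234) and 0.46 (adjusted p = 0.0387). KIF20A lost its call without the siNT pair of untreated or of HU cells, CIT also without the siSETD2 pair in HU, KIF20A also without the pairing, and both with equal sums or with no filter on low values. The ATR checkpoint list gave 8 of 20 higher and 3 lower (median 0.15, with equal sums 0.00 and 2 higher and 3 lower), led by the CDK1-inhibitory kinase PKMYT1, up by 0.81 (adjusted p = 0.000706). For ATR genes the count was 8 higher and 1 lower without untreated siNT or without siSETD2 in HU, 7 and 1 without siSETD2 in HU with VE-822 and 9 and 1 with a GC correction.

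Replication-dependent histone genes were lower in set 2, with 0 of 12 higher and 11 lower and a median of -0.96 (with equal sums -1.11 and 0 higher and 11 lower). HIST1H2AC stood at 6.0 to 10.5 FPKM (median 8.83) in set 2, against 14.2 to 32.2 FPKM (median 17.9) in set 1 (log2 change -1.19, SE 0.103, adjusted p = 9.73e-05). HIST1H2BK, the most abundant of the 3 named, had 70.8 to 104 FPKM (median 80.8) in set 2, against 153 to 248 FPKM (median 163) in set 1 (log2 change -1.08, SE 0.119, adjusted p = 0.000305), and HIST1H4I fell by 1.13 (adjusted p = 0.000838). None of the 3 overlapped. Messages of this class mostly lack a poly(A) tail, how RNA was selected is not given in the sources used here, and near-identical copies share reads. Of the 27 members, 25 were found among the deposited genes, and only 12 of those passed the filter on low values.

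p53 targets gave 0 of 28 higher and 7 lower, against 19.5% and 17.1% of all genes (median -0.19). With equal sums they gave a median of -0.36 and 0 higher and 17 lower, where 1110 of all 13030 genes were higher and 4683 lower. For p53 targets the count was 0 higher and 12 lower with limma-voom and 2 and 6 without untreated siSETD2. RRM2B, the p53-induced subunit of ribonucleotide reductase, stood at 11.3 to 19.2 FPKM (median 16) in set 2, against 23.4 to 35.3 FPKM (median 26.2) in set 1 (log2 change -0.79, SE 0.0771, adjusted p = 0.000168). ZMAT3, an RNA-binding p53 target, was at 2.16 to 2.85 FPKM (median 2.64) in set 2, against 4.51 to 5.12 FPKM (median 4.89) in set 1 (log2 change -0.71, SE 0.0539, adjusted p = 5.61e-05), and TP53INP1 fell by 0.52 (adjusted p = 0.000557). RRM2B and ZMAT3 did not overlap between sets, while TP53INP1 did. Genes of growth arrest were split, with 8 of 25 higher and 8 lower (median -0.09, with equal sums -0.21 and 5 higher and 11 lower), with the CDK inhibitor CDKN2C up by 1.10 (adjusted p = 7.91e-05), the growth factor receptor PDGFRB up by 1.02 (adjusted p = 8.73e-05) and the antiproliferative gene BTG1 down by 0.84 (adjusted p = 0.000382).

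NRF2 targets, which handle oxidants and iron, were lower in set 2, with 2 of 20 higher and 14 lower (median -0.56, with equal sums -0.70 and 1 higher and 17 lower). FTL (ENSG00000087086, chr19:48965301-48966878, plus strand), the ferritin light chain, stood at 273 to 370.1 FPKM (median 334) in set 2, against 554 to 1038 FPKM (median 650.4) in set 1 (log2 change -1.11, SE 0.152, adjusted p = 0.000851), with reads that ferritin pseudogenes may share. AKR1B10, an aldo-keto reductase that passed the filter on low values only through set 1, had 0.495 to 0.986 FPKM (median 0.674) in set 2, against 1.85 to 3.57 FPKM (median 2.7) in set 1 (log2 change -1.10, SE 0.0985, adjusted p = 0.000118). With HMOX1, these lay without overlap below set 1. The list shares the cystine transporter SLC7A11 with ATF4 targets, and it fell by 0.60 (adjusted p = 0.00244) with overlapping sets, a call lost without the pairing. ME1, which makes NADPH, fell by 0.57 (adjusted p = 0.00122).

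Lysosomal and autophagy genes under TFEB gave 0 of 28 higher and 19 lower (median -0.46, with equal sums -0.61 and 0 higher and 23 lower). MAP1LC3B, the autophagosome protein LC3B, stood at 6.19 to 9.44 FPKM (median 7.6) in set 2, against 12.4 to 20.1 FPKM (median 15.8) in set 1 (log2 change -1.003, SE 0.108, adjusted p = 0.000275). WIPI1, which acts in autophagosome formation, had 2.0 to 2.38 FPKM (median 2.12) in set 2, against 4.28 to 5.47 FPKM (median 4.75) in set 1 (log2 change -0.89, SE 0.0609, adjusted p = 3.34e-05). NEU1, the lysosomal sialidase, stood at 21.6 to 28.4 FPKM (median 25.1) in set 2, against 35.3 to 50.003 FPKM (median 42.6) in set 1 (log2 change -0.75, SE 0.0916, adjusted p = 0.000488). The 3 genes were lower in set 2 with no overlap.

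The E-box CACGTG, the core of the element that TFEB binds, is in capitals in 4 promoters of the list, shown to set lower members beside 1 that was not called. CTSD (cathepsin D), CTSA (cathepsin A) and MCOLN1 (a lysosomal calcium channel) were chosen after their values were seen, at -0.69 (adjusted p = 0.0011), -0.34 (adjusted p = 0.0102) and -0.11 (adjusted p = 0.254).
NEU1 (chr6:31862922-31862967, minus strand): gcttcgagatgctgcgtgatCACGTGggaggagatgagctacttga
CTSD (chr11:1763949-1763994, minus strand): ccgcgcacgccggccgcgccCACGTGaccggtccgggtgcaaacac
CTSA (chr20:45891290-45891335, plus strand): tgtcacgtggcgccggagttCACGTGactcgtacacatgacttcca
MCOLN1 (chr19:7522590-7522635, plus strand): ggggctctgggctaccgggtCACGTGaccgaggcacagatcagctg
The box occurred in 6 of the 18 list members with a promoter in the table (33.3%), against 7.26% of all promoters and 10.5% of those of genes tested. The list was made of TFEB targets, so this share follows from its choice and is not a result of the comparison. Of these 6 genes 4 were lower in set 2 and 0 higher, as the whole list was mostly lower. Among all 955 tested genes with the box, 16.8% were higher and 19.5% lower, near the shares of all genes. The windows of CTSA and MCOLN1 hold 2 copies each, with 1 in capitals, and the stretch of CTSA also holds its other copy in lower case.

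Heat shock chaperones gave 0 of 16 higher and 11 lower (median -0.34, with equal sums -0.52 and 0 higher and 14 lower). For heat shock genes the count was 0 higher and 7 lower without siNT in HU, without siSETD2 in HU with VE-822 or with no filter on low values. DNAJB1, a co-chaperone of HSP70, stood at 14.4 to 18.1 FPKM (median 15.1) in set 2, against 20.3 to 25.2 FPKM (median 21.6) in set 1 without overlap (log2 change -0.48, SE 0.0682, adjusted p = 0.00106). HSPA1A and HSPA1B, near-identical inducible HSP70 genes that share reads, changed by -0.80 (adjusted p = 0.00335) and -0.44 (adjusted p = 0.00853) with overlapping sets. Proteasome subunits gave 0 of 29 higher and 6 lower, against 19.5% and 17.1% of all genes (median -0.19, with equal sums -0.36 and 0 higher and 23 lower). Of these, PSMD2, a base subunit of the regulatory particle, was at 81.1 to 98.9 FPKM (median 94.9) in set 2, against 127 to 148 FPKM (median 140.4) in set 1 (log2 change -0.58, adjusted p = 0.000695). For proteasome subunits the count was 0 higher and 3 lower without siSETD2 in HU or with no filter on low values and 0 and 18 with limma-voom. Chaperones of the endoplasmic reticulum were even, with 5 of 22 higher and 5 lower (median 0.05, with equal sums -0.11 and 1 higher and 7 lower). With 1 pair left out they counted 1 to 6 higher and 2 to 5 lower, fewest higher without either siNT pair given HU, and 8 higher and 4 lower with a GC correction. They counted 2 higher and 3 lower without the pairing or with no filter on low values, and 2 and 6 with limma-voom. The disulfide isomerase PDIA4 rose by 0.46 (adjusted p = 0.00149) and the co-chaperone DNAJB9 fell by 0.56 (adjusted p = 0.00206). ATF4 targets were split as well, with 7 of 23 higher and 6 lower (median -0.02, with equal sums -0.16 and 3 higher and 10 lower), with PHGDH, the first enzyme of serine synthesis, up by 0.72 (adjusted p = 8.79e-05) and DDIT4, an mTORC1 inhibitor, up by 0.59 (adjusted p = 0.00645), a call lost without the pairing. For ATF4 targets the count was 2 higher and 2 lower without the pairing and 7 and 3 with no filter on low values. The zinc list gave 3 of 6 higher and 0 lower (median 0.13, with equal sums -0.01 and 1 higher and 1 lower). For zinc genes the count was 1 higher and 0 lower without untreated siNT, without siSETD2 in HU or with no filter on low values. MT1E, a metallothionein that shares sequence with its relatives, rose by 0.51 (adjusted p = 0.0165) with overlapping sets, a call lost without the untreated siNT or the siSETD2 HU pair, or with no filter on low values.

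Genes encoded by the mitochondrial genome counted 11 of 13 higher and 0 lower (median 0.38, 0.20 with equal sums, which left 3 higher and 0 lower). Equal sums scale these genes in part by themselves. For mitochondrial genes the count was 3 higher and 0 lower without untreated siNT, 4 and 0 without siNT in HU or without siSETD2 in HU with VE-822, 2 and 0 without siSETD2 in HU and 0 and 0 with no filter on low values. MT-CO3, a core subunit of cytochrome c oxidase, stood at 16034 to 24886 FPKM (median 20824) in set 2, against 10551 to 15768 FPKM (median 13687) in set 1 (log2 change 0.69, SE 0.113, adjusted p = 0.00211), without overlap, though it lost its call with no filter on low values. Nuclear genes of the respiratory chain counted 1 of 38 higher and 2 lower (median 0.01, with equal sums -0.15 and 0 higher and 12 lower, near the median of all genes there). CYC1, cytochrome c1, rose by 0.38 (adjusted p = 0.016) with overlapping sets, a call lost without the siSETD2 pair in HU or in HU with VE-822, with equal sums, with a GC correction or with no filter on low values. For the nuclear respiratory list the count was 6 higher and 1 lower without untreated siSETD2 and 1 and 7 with limma-voom. The contrast between both lists was not tested. Glycolysis genes gave 4 of 19 higher and 2 lower (median 0.01, with equal sums -0.14 and 3 higher and 5 lower), with the glucose transporter SLC2A1 at 77.9 to 109 FPKM (median 95.3) in set 2, against 41.5 to 76.4 FPKM (median 60.3) in set 1 (log2 change 0.64, adjusted p = 0.00196) and the lactate dehydrogenase LDHA at 82.6 to 107 FPKM (median 100.1) in set 2, against 62.6 to 80.8 FPKM (median 67.6) in set 1 (log2 change 0.48, adjusted p = 0.00169), both without overlap. For glycolysis genes the count was 2 higher and 1 lower without siSETD2 in HU and 2 and 2 with a GC correction. HIF targets gave 5 of 20 higher and 2 lower, against 19.5% and 17.1% of all genes (median 0.16, with equal sums 0.00 and 4 higher and 4 lower). For HIF targets the count was 8 higher and 1 lower with a GC correction. Besides CA9, its relative CA12 rose by 0.88 (adjusted p = 0.000145) and the collagen-crosslinking enzyme LOX by 0.85 (adjusted p = 2.54e-05).

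Lipid genes were split between both directions. Fatty acid synthesis gave 6 of 13 higher and 1 lower (median 0.22, with equal sums 0.04 and 2 higher and 1 lower). SREBF1 (ENSG00000072310, chr17:17810399-17837002, minus strand), a master transcription factor of lipid synthesis, stood at 50.1 to 65.6 FPKM (median 55.6) in set 2, against 22 to 27.8 FPKM (median 24.7) in set 1 (log2 change 1.14, SE 0.0758, adjusted p = 2.8e-05). The desaturase FADS2 was at 27.3 to 36.9 FPKM (median 34) in set 2, against 12.6 to 19 FPKM (median 16.1) in set 1 (log2 change 0.999, SE 0.0643, adjusted p = 2.54e-05), again without overlap. Cholesterol synthesis leaned the other way, with 3 of 24 higher and 9 lower (median -0.14, with equal sums -0.29 and 1 higher and 14 lower). For cholesterol synthesis the count was 2 higher and 4 lower without siSETD2 in HU and 2 and 5 with no filter on low values. HMGCS1, which makes HMG-CoA, fell by 0.47 (adjusted p = 0.00563) and HSD17B7, a sterol reductase, by 0.55 (adjusted p = 0.000258), while the sterol isomerase EBP rose by 0.50 (adjusted p = 0.00118).

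Cytosolic ribosomal protein genes gave 1 of 56 higher and 0 lower (median 0.00, with equal sums -0.18 and 0 higher and 6 lower, near the median of all genes there), and their processed pseudogenes may share reads. For ribosomal proteins the count was 6 higher and 0 lower without untreated siSETD2 and 0 and 4 with limma-voom. The member called was RPL22, at 0.25 (adjusted p = 0.0196), which lost its call without any 1 of the 4 pairs given HU, with equal sums and with limma-voom. TOP-mRNA factors gave 1 of 17 higher and 3 lower (median -0.05, with equal sums -0.23 and 0 higher and 8 lower). For TOP-mRNA factors the count was 0 higher and 7 lower with limma-voom. Ribosome biogenesis genes gave 1 of 28 higher and 1 lower (median -0.05, with equal sums -0.22 and 0 higher and 13 lower). For ribosome biogenesis the count was 0 higher and 8 lower with limma-voom and 1 and 3 with a GC correction. The tRNA synthetases gave 1 of 20 higher and 5 lower (median -0.10, with equal sums -0.28 and 1 higher and 14 lower). For tRNA synthetases the count was 1 higher and 11 lower with limma-voom. Splicing factors gave 13 of 27 higher and 0 lower (median 0.20, 0.04 with equal sums, which left 2 higher and 1 lower), led by the spliceosome scaffold SRRM2 at 143 to 167 FPKM (median 150.4) in set 2, against 57.7 to 118 FPKM (median 111) in set 1 (log2 change 0.62, SE 0.149, adjusted p = 0.0121), a call lost with no filter on low values. For splicing factors the count was 7 higher and 0 lower without siNT in HU, without siSETD2 in HU or without siSETD2 in HU with VE-822 and 8 and 1 with limma-voom. Targets of nonsense-mediated decay gave 5 of 14 higher and 3 lower (median 0.10, with equal sums -0.05 and 2 higher and 3 lower) and nuclear or non-polyadenylated RNAs 4 of 8 higher and 0 lower (median 0.31, with equal sums 0.14 and 2 higher and 1 lower), among which the paraspeckle RNA NEAT1 rose by 0.58 (adjusted p = 0.002) with overlapping sets. Enzymes and readers of H3K36 methylation, the mark SETD2 completes, gave 4 of 25 higher and 2 lower (median 0.09, with equal sums -0.09 and 2 higher and 7 lower). The mismatch repair reader MSH6 rose by 0.55 (adjusted p = 0.000157) and the demethylase KDM4C fell by 0.37 (adjusted p = 0.00239), neither with overlap. For H3K36 genes the count was 3 higher and 6 lower with limma-voom.

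Interferon-stimulated genes were lower in set 2, with 2 of 24 higher and 14 lower (median -0.26, with equal sums -0.42 and 1 higher and 17 lower). For interferon-stimulated genes the count was 2 higher and 9 lower without siNT in HU and 1 and 8 without siSETD2 in HU or with no filter on low values. IFI6, an interferon-induced mitochondrial protein, stood at 13.7 to 26 FPKM (median 17) in set 2, against 35 to 63.5 FPKM (median 48.4) in set 1 (log2 change -1.40, SE 0.143, adjusted p = 0.000203). ISG15, a ubiquitin-like protein, had 12.1 to 21.1 FPKM (median 15.1) in set 2, against 28.7 to 48.6 FPKM (median 36.9) in set 1 (log2 change -1.21, SE 0.114, adjusted p = 0.000142). DDX58, the RNA sensor RIG-I, stood at 5.02 to 6.04 FPKM (median 5.29) in set 2, against 9.92 to 12.4 FPKM (median 10.8) in set 1 (log2 change -0.91, SE 0.0725, adjusted p = 6.51e-05). These 3 genes did not overlap between sets. NF-kB and cytokine genes were mixed, with 5 of 24 higher and 3 lower (median 0.00, with equal sums -0.17 and 4 higher and 6 lower). For NF-kB genes the count was 6 higher and 1 lower without untreated siNT, 4 and 1 without siNT in HU, without the pairing or with no filter on low values, 8 and 2 without untreated siSETD2 and 5 and 5 with limma-voom. BCL3, a nuclear cofactor of NF-kB, stood at 5.8 to 8.67 FPKM (median 7.72) in set 2, against 1.89 to 2.65 FPKM (median 2.16) in set 1 without overlap (log2 change 1.37, SE 0.0686, adjusted p = 6.55e-06), and the cytokines IL6 and CCL2 rose by 1.01 (adjusted p = 6.79e-05) and 0.95 (adjusted p = 0.00234) with overlap. MHC class I genes gave 2 of 11 higher and 1 lower (median 0.00, with equal sums -0.16 and 0 higher and 4 lower). For MHC class I genes the count was 1 higher and 4 lower with limma-voom and 0 and 2 without the pairing. Immediate early genes gave 4 of 20 higher and 1 lower (median 0.10, with equal sums -0.05 and 3 higher and 7 lower), with JUND, an AP-1 subunit, up by 0.65 (adjusted p = 0.00147) and the phosphatase DUSP1 by 0.64 (adjusted p = 0.000358). For immediate early genes the count was 4 higher and 6 lower with limma-voom and 3 and 4 with a GC correction. ERK feedback genes gave 3 of 13 higher and 3 lower (median 0.07, with equal sums -0.06 and 1 higher and 5 lower). For ERK feedback genes the count was 2 higher and 5 lower with limma-voom. EMP1, a membrane protein, rose by 0.72 (adjusted p = 0.000275) and the ERK inhibitor SPRY2 fell by 0.38 (adjusted p = 0.00538).

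**Figure D3:**
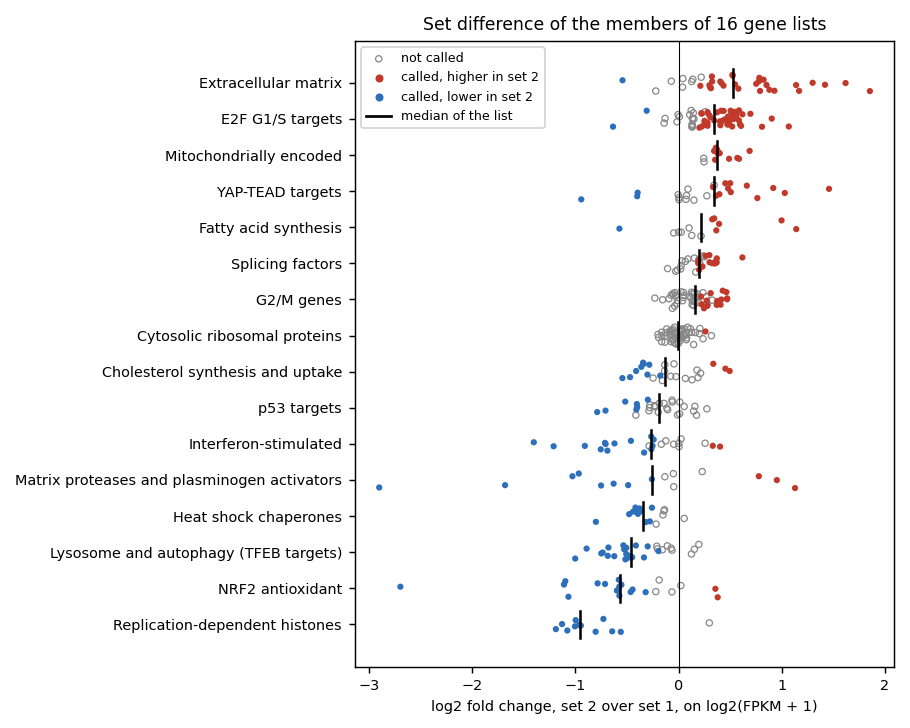
Change between set 2 and set 1 on log2(FPKM + 1) (horizontal axis) of each tested member of 16 lists (rows), filled where called, with a black bar at the list's median. Matrix and E2F lists lie mostly right of 0 and the NRF2, lysosome and histone lists mostly left. With equal sums of FPKM the G2/M median was -0.01, where the median of all genes was -0.14.

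No gene was called for a set difference that differed between siSETD2 and siNT cells, with 891 at an unadjusted p under 0.05 where 650 are expected. Likewise 0 were called between HU and untreated cells (1256 at that p) and 0 between HU with VE-822 and untreated cells (2255), each in limma with 3 or 2 pairs a side. Within 1 siRNA, 1503 genes were called in siNT cells (782 higher, 721 lower) and 3747 in siSETD2 cells (1924 higher, 1823 lower), counts that do not themselves show a difference between siRNAs. Medians by pair show where lists were alike. The matrix list was above 0 in 6 of 6 pairs (0.35 to 0.67), and E2F targets in 6 of 6 (0.25 to 0.46). Histones were below 0 in 6 of 6, lysosomal genes in 6 of 6 and NRF2 targets in 6 of 6.

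In other lists the medians had opposite signs by treatment. p53 targets had medians of 0.03 (siNT) and 0.15 (siSETD2) in HU with VE-822, against -0.49 and -0.76 untreated. G2/M genes showed the opposite, with -0.03 and -0.16 in HU with VE-822, against 0.41 and 0.28 untreated. These differences by treatment were not tested as lists. Ribosomal proteins had a median of -0.61 in the untreated siSETD2 pair and 0.01 to 0.37 in the other 5. Proteasome subunits had -0.68 there, against -0.18 to 0.13 elsewhere.

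**Figure D4:**
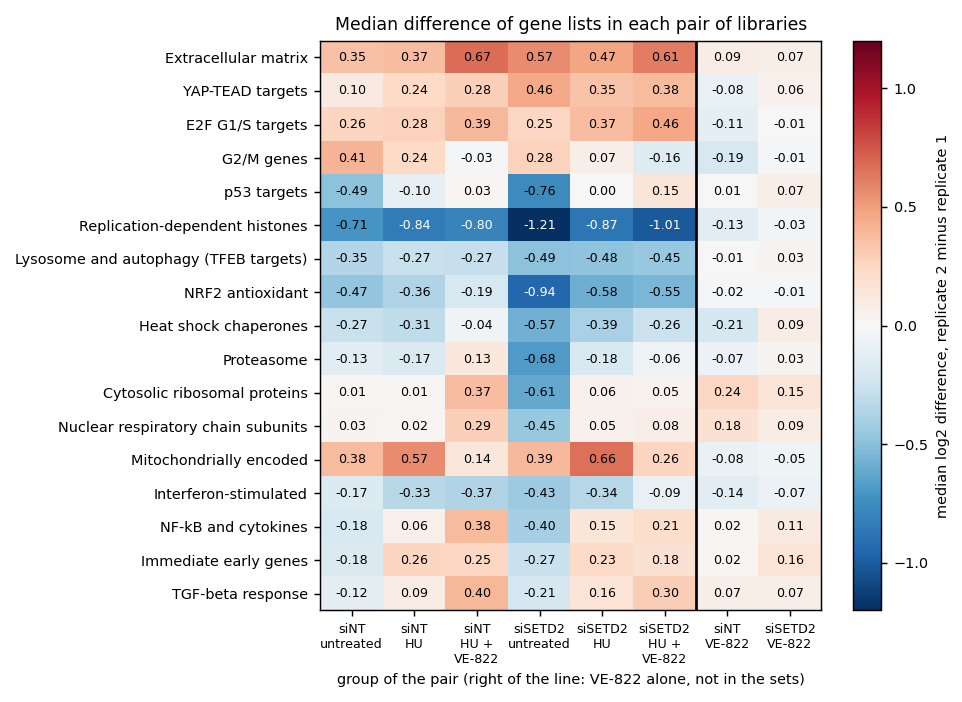
Median log2 difference, library 2 minus library 1, of 17 lists (rows) in each pair (columns), with the VE-822-alone pairs right of the line; red is higher and blue lower in library 2. Histone, lysosome and NRF2 rows are blue in all 6 pairs of the sets, while p53 and G2/M rows differ between untreated and HU with VE-822.

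The 4 libraries given VE-822 alone were not part of the comparison and are set beside both sets. Of the 94 genes higher in set 2 by a fold of 2, the mean of the VE-822-alone libraries was nearer to set 2 for 86, and of the 102 lower genes for 86. It lay beyond set 2 for 62 of the higher and 41 of the lower genes. These genes were chosen by the set difference, and the share over all genes was not taken. The treatment of these libraries is in neither set, so nearness to a set cannot be told apart from an effect of VE-822 alone. The mean log2 level of the higher genes was 3.76 to 3.93 in set 2 libraries, 4.04 to 4.12 in VE-822-alone libraries and 2.40 to 2.74 in set 1 libraries. For the lower genes it was 2.13 to 2.37 in set 2, 2.29 to 2.47 in VE-822 alone and 3.54 to 3.95 in set 1. BCAM, for instance, had 29.6 to 43.3 FPKM in VE-822 alone, HMOX1 18.4 to 22.5 FPKM and SPP1 48.1 to 74.9 FPKM, while IFI6 was at 45 to 69.98 FPKM, overlapping the range of set 1. Between both libraries of the VE-822-alone groups 0 genes were called, with 897 at an unadjusted p under 0.05. The replicate difference in VE-822 alone differed from the set difference of the other 6 groups for 794 genes (6.07%), 350 higher (2.67%) and 444 lower (3.39%).

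GC content moved with the set difference, but not in every pair. Genes were ranked by GC content of the longest transcript and divided into 5 equal bins. In the highest bin (58.2% to 86.4% GC), 33.6% were higher in set 2 and 8.54% lower, while in the lowest bin (23.1% to 41.0% GC) 11.5% were higher and 22.3% lower. The median change was 0.14 in the highest and -0.06 in the lowest bin. The untreated siNT pair went the other way, with -0.03 in the highest and 0.02 in the lowest bin, and the other 5 pairs had 0.09 to 0.26 in the highest and -0.12 to -0.02 in the lowest. The pairs given VE-822 alone showed the trend too, with 0.17 (siNT) and 0.15 (siSETD2) in the highest bin and -0.14 and -0.08 in the lowest. With the trend removed in each library, 2477 genes were higher and 2251 lower, and 3980 of 4756 calls were shared. The E2F list then had 47 higher and 2 lower members, the matrix list 26 and 1, the lysosome list 1 and 20, and the NRF2 list 2 and 14. Whether GC bias or expression set the trend was not tested.

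**Figure D5:**
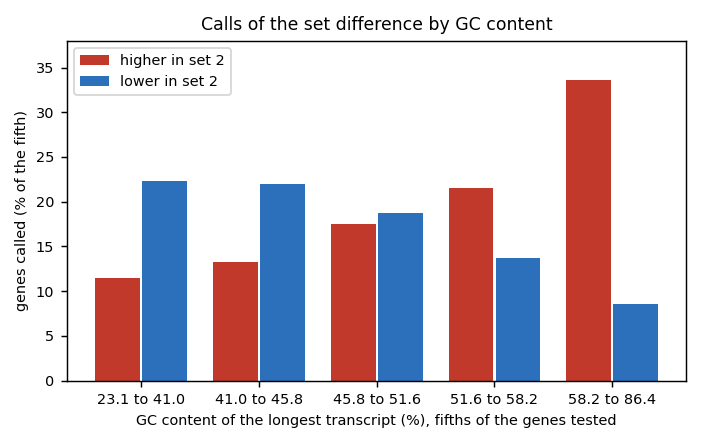
Percent of genes called higher (red) and lower (blue) in set 2 (vertical axis) in 5 equal bins of the genes by GC content of the longest transcript (horizontal axis). The share called higher climbs to 33.6% in the highest bin, and the share called lower is largest, at 22.3%, in the lowest.

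The study's own comparisons were fitted with and without a term for the set. Between siSETD2 and siNT over the 12 libraries, limma called 52 genes with this replicate block (13 higher, 39 lower) and 0 without it (771 at an unadjusted p under 0.05). The median standard error was 0.0779 with the block, against 0.112 without it. For HU against untreated the counts were 73 with the block (31 higher, 42 lower) and 0 without it (737 at that p), with median standard errors of 0.0954 and 0.137.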

How the data were processed

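Per the labels' protocols, RNA was taken from U2OS cell pellets with a column kit and made into libraries with an Illumina kit. The deposited values are FPKM, 1 column per library for 58735 Ensembl genes, made by the authors. Per the submitters' processing notes the build was hg38 and the tools named are DESeq2 1.26.0, featureCounts 1.5.0-p3, STAR 2.6.1d and FastQC. No parameter, annotation or strand setting is given in the sources used here. All gene IDs occur in GENCODE release 29, which gave positions, exon lengths and symbols. Multiplying FPKM by exon length and 1 factor per library gave whole fragments (tolerance 0.01) for 100% of values, so depth is known; a fit on these fragments (limma-voom) served as an alternative and called 5627 genes, against 4756.

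The 13009 genes whose mean over the 12 libraries reached 1 FPKM were tested, with LINC00565 (1.00017 FPKM) just inside and SATB1 (0.999972 FPKM) just outside. Genes under 1 FPKM in every library of 1 set passed only through the set where they were high. Among those named, CA9 and C9orf84 passed through set 2, and MYCT1, LINC01705, PNLIPRP3, SPINK1 and AKR1B10 through set 1. Their calls are not separate support for a set difference. The limma-trend method (R 4.3.3, limma 3.58.1, without robust estimation) was run on log2(FPKM + 1), which understates changes of low genes, with 1 mean per group and a set term, 5 residual and 3.83 prior degrees of freedom. Every adjusted p of a gene is a limma p with Benjamini-Hochberg adjustment over all genes tested, called under 0.05. Values per library were tested with a two-sided exact sign-flip permutation test over the pairs, with Benjamini-Hochberg adjustment over the 5 values tested. Fits were tested on simulated data. Replicate numbers paired the libraries: pair differences correlated across genes at 0.37 to 0.75 among the 6 groups, at -0.05 to 0.30 with a VE-822-alone group and at 0.40 between both VE-822-alone groups; genes are not independent. No 2 libraries of a group were a repeat deposit, with chi-square per degree of freedom of at least 7.65.

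Members and the 45 gene lists were chosen with earlier results of these data known. Genes were named by rule: the 12 largest rises and falls with the same sign in all 6 pairs, up to 3 called members per list, those called in interactions and SETD2 (141 in all, 62 of them overlapping a gene on the other strand, whose fragments cannot be told apart without strand). Others are named as chosen after their values were seen. Alternatives were the pseudocount, the filter, 2 scalings, robust estimation, unpaired sets, leaving out pairs, and, added after seeing the data, a GC correction.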

Additional observations from a re-analysis of the deposited data

Results flagged for a closer look

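In each group of 6 pair differences, a pair far from the others was looked for among 71 values (Dixon's test at the 95% level, which chance passes in about 1 in 20 groups). The ratio of the gap to the range was 0.629 for ANO2 and 0.695 for HMOX1, in both with untreated siSETD2 as the distant pair. Among lists it was 0.638 for cytosolic ribosomal proteins, 0.639 for TOP-mRNA factors, 0.677 for tRNA synthetases, 0.638 for nuclear respiratory chain subunits, again for untreated siSETD2, and 0.627 for HIF targets, for untreated siNT. Among values per library it was 0.714 for the number of fragments and 0.636 for the number of genes detected, both for siNT in HU with VE-822.

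Some lists had medians on opposite sides of 0 in treated and untreated pairs, a difference that was not tested. The mean difference in HU with VE-822 minus untreated was 0.514 for TGF-beta response genes, 0.436 for immediate early genes, 0.714 for p53 targets, -0.437 for G2/M genes and 0.587 for NF-kB genes. For HU minus untreated it was 0.288 for TGF-beta response genes, 0.465 for immediate early genes and 0.392 for NF-kB genes.

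The replicate difference in VE-822 alone differed from the set difference of the other 6 groups, by limma's test, for 794 genes.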

How the results depend on the processing

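Of 2087 values of 141 named genes under the alternatives, 1969 kept direction and side of the threshold, 114 lost the call, 4 gained one and 0 changed direction. The set difference gave 4126 to 5793 calls under the other full settings, apart from 2780 (1526 higher, 1254 lower) with a filter at 5 FPKM, where fewer genes were tested (6905). With equal sums of FPKM it gave 1110 higher and 4683 lower, and with limma-voom 1844 higher and 3783 lower. Leaving out 1 pair gave 3366 (without siSETD2 in HU) to 4966 calls (without untreated siSETD2), with 1808 to 2677 higher and 1558 to 2289 lower. The interaction of set with HU plus VE-822 had 1 call with the filter at 5 FPKM. In VE-822 alone the replicate difference had 25 calls with no filter. Its contrast with the other groups gave 529 calls (203 higher) with the filter at 5 FPKM, 384 (179 higher, 205 lower) with no filter, and 861 higher and 169 lower with equal sums; the cause was not tested. In the study's comparisons the replicate block gave 52 calls for siSETD2 and 73 for HU, against 0 without the block. Each library held at least 22310806 fragments. The comparison rests on 1 set of each kind, with 6 pairs that are not independent of it.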

Other observations

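Calls differed between gene types and chromosomes, where 19.5% of all genes were higher in set 2 and 17.1% lower. Of 97 small nucleolar RNA genes tested, 19.6% were higher, as among all genes, but 0 were lower. Antisense RNAs were higher in 22.9% and lower in 11.9% of 572 genes, long intergenic RNAs in 16.8% and 21.3% of 493, and protein-coding genes in 19.95% and 18.1% of 10591. On chromosome 22, 25.8% of genes were higher and 13.5% lower, and on chromosome 19, 24.9% and 10.6%. On chromosome X it was 15.6% and 24.4%, and on chromosome 18, 13.3% and 23.1%. GC content differs between chromosomes and also moved with the set difference, and its part in these values was not tested.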
